A study of Mus musculus with 12 samples.

Results

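The genes described here are 40 mouse genes of the actin cytoskeleton and of immune synapse remodelling, listed by gene name, with no cut on a measured value in the rule, though with earlier results of these data known. All 40 were found, by gene symbol, among 55487 features measured by RNA-seq, and all 40 were among the 12364 genes that passed a filter on low values (log2 CPM above 0 in at least 4 samples, where CPM is a read count scaled to the total of its library). The list holds actins and the proteins that bind actin monomers, the actin-nucleating Arp2/3 complex with its activators and their upstream regulators, and the proteins that cap, bundle, disassemble or anchor filaments.

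The study compared natural killer (NK) cells, lymphocytes that kill target cells and secrete interferon gamma, in 3 groups of 4 samples. All 12 samples came from mice of strain B6.129S4-Ifngtm3.1Lky/J with genotype mut/mut, a line in which the interferon gamma gene carries a yellow fluorescent protein (YFP) reporter, and all carry the label HD IL-15, a cytokine priming shared by the controls. The first group was left unstimulated. The others were stimulated for 6 h with anti-NK1.1, an antibody against an activating surface receptor, and are labelled YFP- or YFP+, so reporter signal divides stimulated cells by their own interferon gamma locus. Each group holds samples labelled f2, m2, m3 and m4. Whether 1 label stands for 1 mouse across the groups, the age of the mice and the sort purity are not given in the sources used here, and p-values measure the spread between these samples only.

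Actin filaments grow by adding monomers, which profilin delivers and thymosin beta holds back. The Arp2/3 complex starts new branches when proteins of the WASP and WAVE families activate it, and these in turn respond to Cdc42 and Rac, which exchange factors such as the Vav and DOCK proteins switch on. In NK cells a branched actin network builds the contact with a target cell, carries integrin adhesion and is reorganised to let lytic granules reach the membrane.

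Libraries held 32.1 to 54.2 M reads. All 10 NK cell markers checked were above 1 CPM in every library, but several moved with the groups. Klrb1c, which encodes the NK1.1 antigen, was at 290.2 to 327 CPM without stimulation, 57.6 to 86.6 CPM among YFP- and 3.71 to 8.98 CPM among YFP+ samples. Ncr1 (182 to 248.8 CPM in the other samples, 105 to 138 CPM in YFP+), Klrd1 (244 to 415 and 150.4 to 178 CPM) and Eomes (57.5 to 115 and 38.3 to 43.0 CPM) were also lower in all YFP+ samples. Summed markers of B cells, platelets and erythroid cells were at 4.45 CPM or less. The T cell list summed to 52.9 to 113 CPM in unstimulated samples (68.2 to 94.0 CPM among YFP- and 64.0 to 96.2 CPM among YFP+ samples), nearly all from Cd3g, Cd3d and Trac, with Cd4, Cd8a and Cd8b1 at 7 reads or fewer in every library. Within it Trac was at 6.84 to 8.48 CPM in unstimulated samples, 27.6 to 41.9 CPM among YFP- and 40.4 to 54.5 CPM among YFP+ samples. The summed myeloid list spanned 53.1 to 60.3 CPM without stimulation, 27.5 to 44.5 CPM among YFP- and 14.8 to 24.2 CPM among YFP+ samples, nearly all of it Cd68, with S100a9 at 0 reads in every library. The YFP+ libraries m3 and m4 stood apart from f2 and m2 for several genes described below. They had 36.2 and 32.1 M reads, against 48.9 and 54.2 M, and 29.8% and 23.1% of reads on ribosomal RNA-like features, against 13.7% and 16.3%. The unstimulated library m4 had the highest such share of all, 35.3%, and the share averaged 30.7% without stimulation, 21.2% among YFP- and 20.7% among YFP+ samples. Mitochondrial mRNA took 0.292 to 0.484% of reads without stimulation, 0.310 to 0.517% among YFP- and at most 0.214% among YFP+ samples, which lay below all others. Values without the YFP+ libraries m3 and m4 are given for genes where those libraries bear on the result. This setting is unbalanced: m3 and m4 stay in the YFP- and unstimulated groups, so YFP+ f2 and m2 are set against all 4 samples of each. Where m3 and m4 were also low in YFP- samples, as for Rac2, a smaller difference in this setting does not show that f2 and m2 lack the fall. The part of read depth, ribosomal and mitochondrial shares and other cell types in the results was not tested.

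The serum response factor, with its actin-sensing partners of the MRTF family, drives many cytoskeletal genes through a motif named the CArG box. RefSeq promoter windows (250 bases before to 50 bases after the start site, GRCm38.p6) were at hand for 34 members, and not for Actb, Coro1b, Cotl1, Nckap1l, Rac1 and Rac2. Of the 34, 4 members (11.8%) held a CArG box, against 1.45% of 8704 genes tested and 1.81% of 27025 genes with a window of the same length. Both strands were searched. The RefSeq starts used for Actg1 and Myl6 lie inside the span of the GENCODE gene. Stretches around the 4 boxes are shown because these genes, described below, followed different courses. The box is in capitals, each stretch is written 5′ to 3′ on the strand of its gene, and a match of letters is a description and not a shown binding site.
Actg1, chr11:120348566-120348595, minus strand, box at -90 to -81 from the start site: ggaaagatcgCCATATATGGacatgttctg
Arpc4, chr6:113377863-113377882, plus strand, box at -250 to -241: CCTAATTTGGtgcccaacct
Myl6, chr10:128493040-128493069, minus strand, box at -50 to -41: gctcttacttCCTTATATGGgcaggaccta
Vcl, chr14:20929161-20929190, plus strand, box at -227 to -218: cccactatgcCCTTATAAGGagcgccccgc

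Together the 40 genes took 6.29 ± 0.475% of all reads without stimulation (SD, n = 4), 5.05 ± 0.704% among YFP- samples and 4.23 ± 0.830% among YFP+ samples. Actb, the gene for cytoplasmic beta-actin, held an average of 3.20% of reads without stimulation, 2.44% among YFP- samples and 2.11% among YFP+ samples, and ranked 4 by mean level among the 12364 genes. These are shares of a library: in bulk samples, fewer cells that express a gene and less of its RNA per cell cannot be told apart. Divided by exon length, the most abundant members in unstimulated cells were Actb at 11947 CPM per kb of exon, Tmsb4x at 5291 and Actg1 at 1363. In the same order Capg was at place 12 without stimulation (253 CPM per kb), place 4 among YFP- samples (809 CPM per kb) and place 3 among YFP+ samples (1142 CPM per kb). The heat map of all members by sample shows few genes above their unstimulated level in YFP+ samples.

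**Figure D1:**
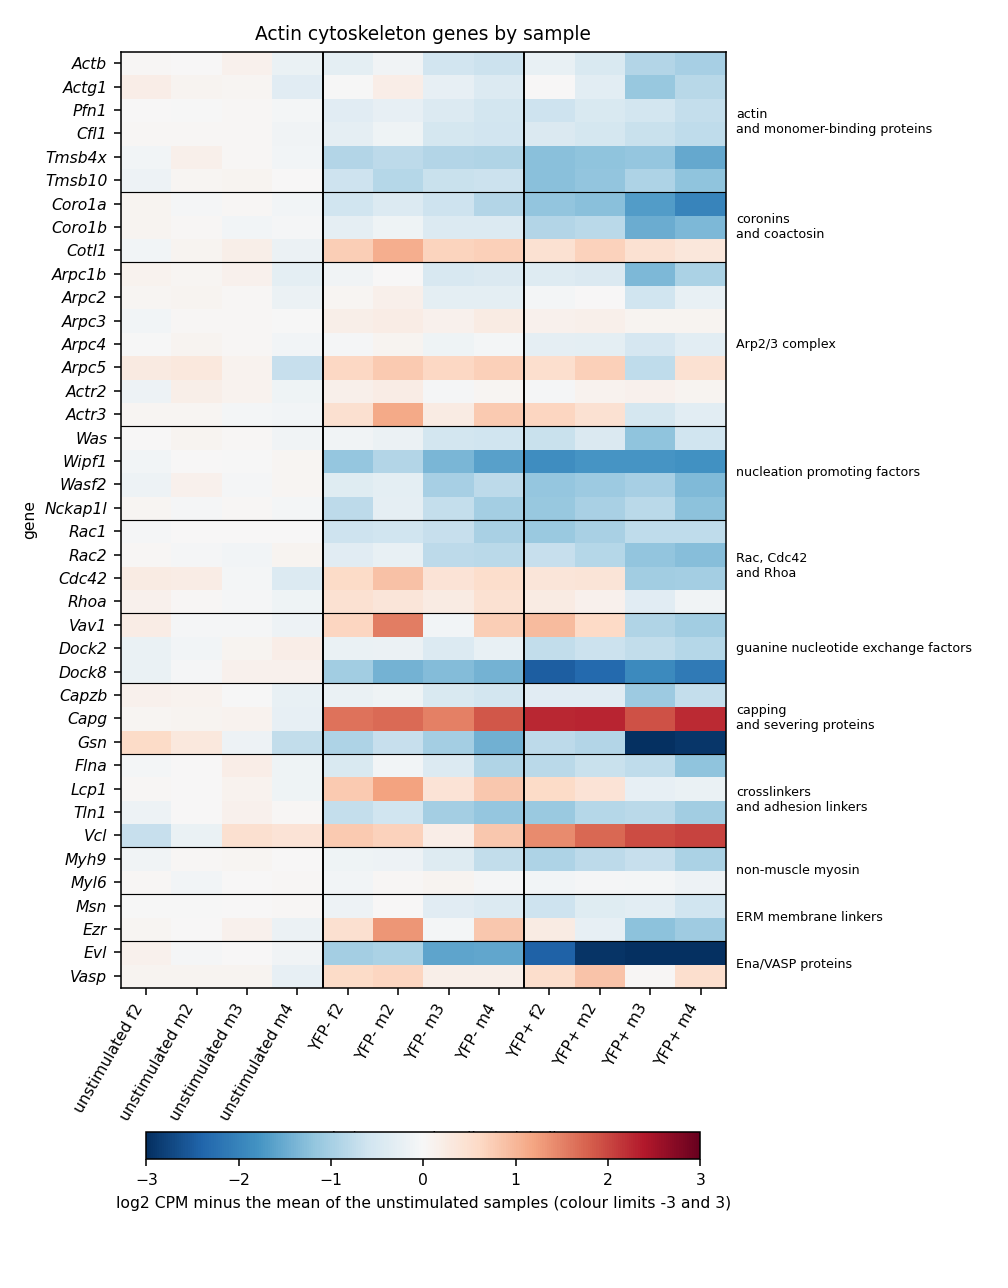
Log2 CPM of each of the 40 genes (rows, ordered by role) in each of the 12 samples (columns, with lines between the groups), as the difference from the mean of the 4 unstimulated samples. Capg is red in all 8 stimulated samples, Evl, Dock8 and Wipf1 are blue in all 8, and Gsn, Cdc42, Vav1 and Ezr are bluest in the YFP+ samples m3 and m4.

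Setting YFP- beside unstimulated samples shows how stimulated cells that lack the reporter signal differ from unstimulated ones. The capping protein gene Capg rose 3.20-fold, and Cotl1, Lcp1, Actr3 and Rhoa rose less. Among members called at the threshold below, the largest falls were in Dock8 (2.45-fold lower), Evl (2.42-fold lower) and Wipf1 (2.40-fold lower), followed by Tln1 and Tmsb4x. The log2 difference of Gsn, -1.02, was a larger fall than that of Tln1 but was not called. In limma, with Benjamini-Hochberg adjustment over all genes and a threshold of 0.05, 5 members were higher and 15 lower, where 51.1% of all genes were called, 30.2% higher and 20.9% lower, each as a share of all genes tested. The median log2 difference of the members was -0.28, against 0.14 over all genes. Groups of samples did not overlap for 9 members higher and 15 lower, against 30.9% and 21.7% of all genes. The direction split of the calls was 25.0% higher as deposited. With each sample centred on its median 4 members were higher and 23 lower (14.8% higher), where 26.5% of all genes were higher and 26.6% lower. With quantile normalization the counts were 3 and 23, where the shares of all genes were 26.8% and 27.6%, and with rRNA-like features removed from library totals they were 4 and 25, where the shares were 24.8% and 27.8%. Capg, Cotl1 and Lcp1 and all 15 falls were called under each of 4 scalings, while Rhoa was lost under 3 of them and Actr3 under quantile normalization. With only the 8 samples compared, 10 members were higher and 20 lower, where 33.9% of all genes were higher and 23.7% lower.

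YFP+ and YFP- cells received the same antibody for the same time, and differ in the label for reporter signal. Capg rose a further 1.41-fold and the adhesion linker gene Vcl 2.22-fold, the latter at no more than 3.56 CPM. The actin elongation factor gene Evl fell 3.96-fold, Ezr 2.33-fold, Cdc42 1.89-fold, Dock8 1.88-fold, Coro1a 1.87-fold and Coro1b 1.77-fold. In limma 2 members were higher and 16 lower, where 21.8% of all genes were called, 3.28% higher and 18.5% lower. Their median log2 difference was -0.41, against -0.19 over all genes. Samples of the groups did not overlap for 2 members higher and 11 lower, against 4.31% and 17.8% of all genes. The scaling of samples bears on these counts: centring each sample moved the median of all genes from -0.19 to 0.07 and left 3 members higher and 5 lower (37.5% of calls higher, against 11.1% as deposited), where 12.2% of all genes were higher and 12.1% lower. Trimmed-mean scaling left 2 higher and 6 lower, where 8.21% of all genes were higher and 13.5% lower. Quantile normalization left 2 higher and 12 lower, where 9.41% of all genes were higher and 11.6% lower. The share of members called lower was near that of all genes under centring and trimmed-mean scaling, and above it under quantile normalization. Coro1a, Coro1b, Dock8, Ezr and Evl were lower, and Capg and Vcl higher, under each of 4 scalings. The members' median minus that of all genes was -0.22 as deposited and -0.40 with quantile normalization. It was -0.11 without the YFP+ libraries m3 and m4, and -0.19 to -0.23 without the samples of 1 label. Settings that change only the spread, or shift all genes of a sample together, cannot move this difference. With no filter the median of all features was 0, so the value of -0.41 there is the members' own median. The count of 18 was 10 without the samples labelled f2, 6 without m2, 8 without m4 and 9 without the YFP+ libraries m3 and m4. In these settings 9, 6, 7 and 8 members were lower. Of all genes, 11.48% to 12.88% were lower and 1.22% to 3.14% higher there, so the drop in calls was not particular to the members. Coro1a, Coro1b, Dock8 and Evl passed in all of these settings.

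The comparison of YFP+ with unstimulated samples spans both steps, and shares its samples with the other comparisons, so that its values are not independent of theirs. YFP- and YFP+ samples were both stimulated for 6 h, so a step is a difference between groups and not a stage in time. Capg was 4.51-fold and Vcl 3.44-fold higher in YFP+ samples, and Cotl1 was 1.40-fold and Vasp 1.40-fold higher. Evl was 9.57-fold lower, Dock8 4.60-fold, Gsn 3.96-fold, Wipf1 3.48-fold and Coro1a 2.87-fold. The Gsn value rests in part on the YFP+ libraries m3 and m4, as described with the gene. In limma 4 members were higher and 25 lower, where 60.8% of all genes were called, 27.5% higher and 33.3% lower. The median of the members was -0.61, against -0.03 over all genes. Samples did not overlap for 4 members higher and 24 lower, against 24% and 30.8% of all genes. Of the falls, 24 were called under each of 4 scalings, all but that of Actg1, and of the rises Capg and Vcl were. Without the YFP+ libraries m3 and m4, 8 members were higher and 22 lower, where 31.6% of all genes were higher and 30.9% lower.

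**Figure D2:**
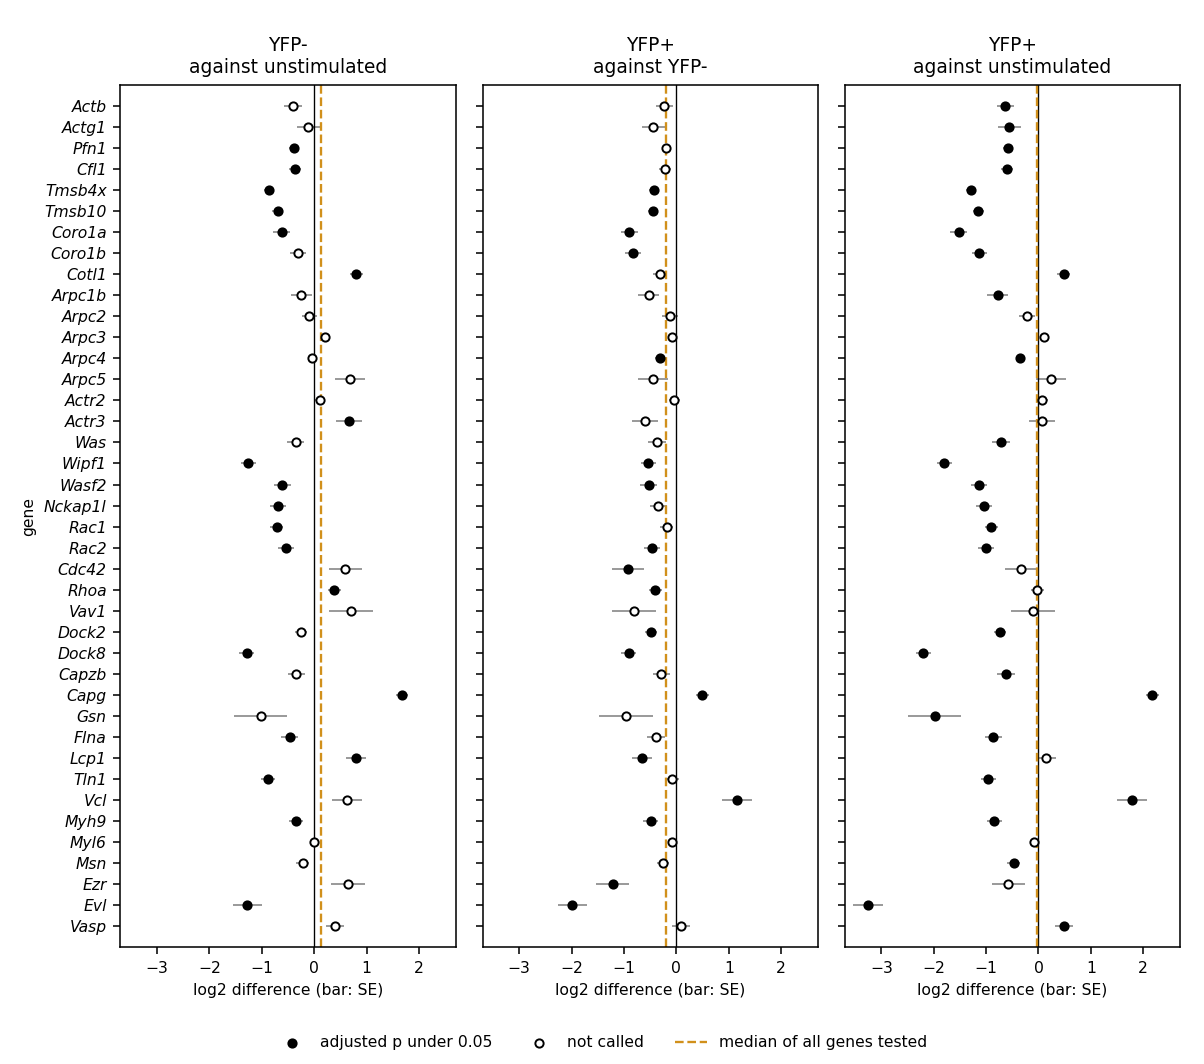
Log2 difference of each of the 40 genes (points, with bars of 1 SE from limma) in the 3 comparisons. Filled points passed an adjusted p of 0.05, the dashed line is the median of all 12364 genes (0.14, -0.19 and -0.03 from left to right), and most points lie to its left.

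Of the 6 genes for actin itself and for proteins that hold or turn over monomers, all 6 were lower in YFP+ than in unstimulated samples (33.3% of all genes were), 4 were lower in YFP- than in unstimulated samples (20.9% of all genes), and the thymosin genes Tmsb4x and Tmsb10 fell at both steps. Values are given in the order f2, m2, m3 and m4 here and below, and sets of 3 ranges in the order unstimulated, YFP- and YFP+ samples. Tmsb4x, which encodes the main actin monomer-sequestering peptide, was at 6811, 8020.3, 7358 and 6826 CPM in the unstimulated samples, 3928, 4175, 3944 and 3893 CPM in the YFP- samples and 3019, 3130.4, 3260.4 and 2514 CPM in the YFP+ samples. The 3 groups did not overlap, and all YFP+ samples lay below all YFP- samples. Tmsb4x fell at the first step, with a log2 difference of -0.86 (SE 0.10, limma adjusted p = 8.8e-06), and again from YFP- to YFP+ samples, with -0.43 (SE 0.10, limma adjusted p = 0.00617). The second of these was not past the threshold with centring (-0.16, limma adjusted p = 0.323) or trimmed-mean scaling (-0.27, limma adjusted p = 0.0745). Tmsb10, a close relative, was at 1241, 1433, 1461 and 1395 CPM in the unstimulated samples, 896, 758, 870.1 and 883 CPM in the YFP- samples and 579, 606, 727 and 594 CPM in the YFP+ samples. It fell in the same order with no overlap, with -0.70 (SE 0.10, limma adjusted p = 8.9e-05) and then with -0.45 (SE 0.10, limma adjusted p = 0.00705), where the second call was lost without the samples labelled f2 or m4, and under centring and trimmed-mean scaling.

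Actb was at 32897, 32387, 35068 and 27669 CPM in the unstimulated samples, 26177, 29706, 21259 and 20461 CPM in the YFP- samples and 27439.8, 23375, 17379 and 16116 CPM in the YFP+ samples. YFP+ and unstimulated samples did not overlap, and the YFP- samples lay between and overlapped both. The log2 difference was -0.63 (SE 0.17, limma adjusted p = 0.00477) for YFP+ against unstimulated samples, and -0.33 (limma adjusted p = 0.0726) without the YFP+ libraries m3 and m4. For YFP+ against YFP- samples it was -0.23 (limma adjusted p = 0.359), but -1.15 (limma adjusted p = 1.7e-04) with quantile normalization. Actg1, which encodes gamma-actin, was at 4117, 3774, 3765 and 2837 CPM in the unstimulated samples, 3533, 4099.9, 3030.3 and 2723 CPM in the YFP- samples and 3643, 2903, 1639 and 2019 CPM in the YFP+ samples. Its groups overlapped throughout, the lowest values were in the YFP+ samples m3 and m4, and the call for YFP+ against unstimulated samples (-0.56, SE 0.22, limma adjusted p = 0.0393) was lost without those libraries (-0.14, limma adjusted p = 0.50004), without the samples labelled m2, m3 or m4, and under trimmed-mean scaling. Of the 150-base stretches of Actg1, 23.3% occur in another gene, mostly Gm12715, so its counts are uncertain, whereas Actb shares none. Pfn1, the profilin gene, ranged over 2286 to 2432 CPM without stimulation, 1619 to 1985 CPM among YFP- and 1446 to 1737 CPM among YFP+ samples. Cfl1, the gene for the filament-severing protein cofilin, ranged over 1671 to 1868, 1211 to 1656 and 1061 to 1351 CPM. Both fell in YFP- samples, with log2 differences of -0.39 (SE 0.09, limma adjusted p = 0.00285) and -0.37 (SE 0.12, limma adjusted p = 0.0160), the latter not past the threshold without m3 (-0.31, limma adjusted p = 0.0854), and neither difference passed between YFP+ and YFP- samples (-0.19 and -0.22).

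Both coronin genes were lower in YFP+ than in unstimulated samples, and the coactosin gene was higher. Coro1a (GRCm38 chromosome 7, 126699773 to 126707787, minus strand), the main coronin of blood cells and a regulator of Arp2/3-dependent actin, was at 2149, 1971, 2084 and 1922 CPM in the unstimulated samples, 1351, 1538, 1322 and 1108 CPM in the YFP- samples and 895, 856, 639.9 and 511 CPM in the YFP+ samples. The groups were fully apart and in the order unstimulated, YFP-, YFP+, with the YFP+ samples m3 and m4 lowest. The log2 difference was -0.62 (SE 0.16, limma adjusted p = 0.00583) in YFP- against unstimulated samples and -0.90 (SE 0.16, limma adjusted p = 0.00146) in YFP+ against YFP- samples. Without the YFP+ libraries m3 and m4 the latter was -0.59 (limma adjusted p = 0.00578). Coro1b, a coronin of many tissues, was at 198, 190.4, 176 and 183 CPM in the unstimulated samples, 154, 171, 140.2 and 141 CPM in the YFP- samples and 102, 107, 66.3 and 73.8 CPM in the YFP+ samples. It too was apart in all groups, though the first step did not pass (-0.30, SE 0.15, limma adjusted p = 0.108) and the second did (-0.82, SE 0.15, limma adjusted p = 0.00172). The second value was -0.53 (limma adjusted p = 0.0105) without the YFP+ libraries m3 and m4. Of its exon bases 14.9% overlap other genes, Ptprcap among them. Cotl1, which encodes the filament-binding protein coactosin-like 1, was at 177, 199.6, 213 and 168 CPM in the unstimulated samples, 313, 400.4, 298 and 311 CPM in the YFP- samples and 258, 302, 260.4 and 238 CPM in the YFP+ samples. Every stimulated sample was above every unstimulated sample, with a difference of 0.80 (SE 0.13, limma adjusted p = 1.5e-04) for YFP- and 0.48 (SE 0.13, limma adjusted p = 0.00421) for YFP+. The lower mean in YFP+ than in YFP- samples did not pass (-0.32, SE 0.13, limma adjusted p = 0.0898), but did with the replicate label as a block (limma adjusted p = 0.0444).

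Of the 7 genes for the Arp2/3 complex, 1 was higher and none lower in YFP- against unstimulated samples, where 30.2% of all genes were higher and 20.9% lower, and their median log2 difference was 0.10 against 0.14 over all genes. In YFP+ against YFP- samples 1 was lower and none higher, where 18.5% of all genes were lower and 3.28% higher, with a median of -0.31 against -0.19. With the replicate label as a block, Arpc1b and Actr3 were also called lower there (limma adjusted p = 0.0181 and 0.0382). In YFP+ against unstimulated samples 2 were lower, where 33.3% of all genes were, with a median of 0.06 against -0.03. Actr2 and Actr3 encode the actin-related subunits that seed a branch. Actr2 was at 131, 165, 157 and 134 CPM in the unstimulated samples, 163, 171, 142 and 153 CPM in the YFP- samples and 141, 157, 159 and 155 CPM in the YFP+ samples, with overlap between all groups. Actr3 was at 218, 217, 200.8 and 198 CPM in the unstimulated samples, 291, 462, 248 and 359.7 CPM in the YFP- samples and 324, 285, 145 and 168 CPM in the YFP+ samples. All YFP- samples were above all unstimulated samples, and the YFP+ samples split, f2 and m2 above and m3 and m4 below the unstimulated range. Actr3 was higher in YFP- than in unstimulated samples, with a log2 difference of 0.67 (SE 0.24, limma adjusted p = 0.0348), a call lost without m2 (0.53, limma adjusted p = 0.139) or m4 (0.60, limma adjusted p = 0.144). Between YFP+ and YFP- samples the value was -0.60 (SE 0.24, limma adjusted p = 0.0968), and -0.12 (limma adjusted p = 0.732) without the YFP+ libraries m3 and m4. In YFP+ against unstimulated samples Actr3 did not pass (0.06), but was higher without those libraries (0.54, limma adjusted p = 0.0233). For the other subunits, Arpc4 was lower in YFP+ than in YFP- samples (-0.31, SE 0.09, limma adjusted p = 0.0288), a call lost when the samples of any 1 label or the YFP+ libraries m3 and m4 were left out (-0.24, limma adjusted p = 0.167, for the latter) and under centring and trimmed-mean scaling. Arpc4 and Arpc1b were lower in YFP+ than in unstimulated samples (-0.34 and -0.78), with -0.28 (limma adjusted p = 0.0429) and -0.40 (limma adjusted p = 0.0379) without those libraries. Arpc1b ranged over 1675 to 2251, 1485 to 2093 and 812 to 1586 CPM in unstimulated, YFP- and YFP+ samples. Arpc4 ranged over 359 to 399, 349.6 to 401 and 269 to 316 CPM, and 12.2% of its exon bases overlap Ttll3 on the same strand. Arpc2 and Arpc3 passed in no comparison, with differences of -0.09 and 0.20 between YFP- and unstimulated, -0.12 and -0.09 between YFP+ and YFP-, and -0.22 and 0.11 between YFP+ and unstimulated samples. Arpc5 had differences of 0.69, -0.45 and 0.23 in the same order, none of which passed, and its YFP+ range of 227 to 628 CPM was set at the low end by library m3. Without the YFP+ libraries m3 and m4 Arpc5 was higher in YFP+ than in unstimulated samples (0.61, limma adjusted p = 0.0246). Its YFP- difference from unstimulated samples (0.69) also passed without them (limma adjusted p = 0.0045).

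Of the 4 genes for activators of the complex, 3 fell in YFP- against unstimulated samples (20.9% of all genes did), 2 fell in YFP+ against YFP- samples (18.5% of all genes) and all 4 were lower in YFP+ than in unstimulated samples (33.3% of all genes), with a median of -1.09 in the last. Wipf1 (GRCm38 chromosome 2, 73429610 to 73529734, minus strand) encodes WIP, the partner that binds WASP and protects it from degradation. Wipf1 was at 83.0, 88.7, 87.1 and 90.4 CPM in the unstimulated samples, 39.0, 47.4, 33.6 and 28.3 CPM in the YFP- samples and 24.1, 25.6, 25.8 and 24.7 CPM in the YFP+ samples. The 3 groups were apart, and the YFP+ samples were close together. The log2 difference was -1.26 (SE 0.14, limma adjusted p = 1.1e-05) in YFP- against unstimulated samples and -0.54 (SE 0.14, limma adjusted p = 0.0154) in YFP+ against YFP- samples. The second call was lost without the samples labelled f2 or m2, and under centring, quantile normalization and trimmed-mean scaling. Was, which encodes WASP itself, was at 57.3, 60.3, 58.5 and 53.1 CPM in the unstimulated samples, 53.3, 50.3, 39.3 and 37.9 CPM in the YFP- samples and 36.3, 42.3, 25.0 and 38.0 CPM in the YFP+ samples. Its values overlapped between neighbouring groups and passed only in YFP+ against unstimulated samples (-0.72, SE 0.17, limma adjusted p = 0.00208). Wasf2, the gene for WAVE2, was at 86.0, 104, 92.9 and 98.5 CPM in the unstimulated samples, 74.2, 78.2, 47.4 and 55.0 CPM in the YFP- samples and 42.8, 44.6, 47.6 and 38.3 CPM in the YFP+ samples. Stimulated samples were all below the unstimulated ones, and YFP+ overlapped YFP-. Wasf2 fell with a log2 difference of -0.61 (SE 0.16, limma adjusted p = 0.00568) in YFP- against unstimulated samples and with -0.53 (SE 0.16, limma adjusted p = 0.0287) in YFP+ against YFP- samples, the first lost without m4 and the second without f2, m2 or m4, without the YFP+ libraries m3 and m4, and under centring, quantile normalization and trimmed-mean scaling. The second difference was -0.51 (limma adjusted p = 0.0821) without those libraries. Nckap1l, the gene for the blood-cell subunit of the WAVE complex, ranged over 61.5 to 66.2, 31.5 to 53.1 and 27.0 to 36.5 CPM. It fell in YFP- against unstimulated samples (-0.70, SE 0.15, limma adjusted p = 0.00216), and its further difference in YFP+ samples did not pass (-0.34).

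**Figure D3:**
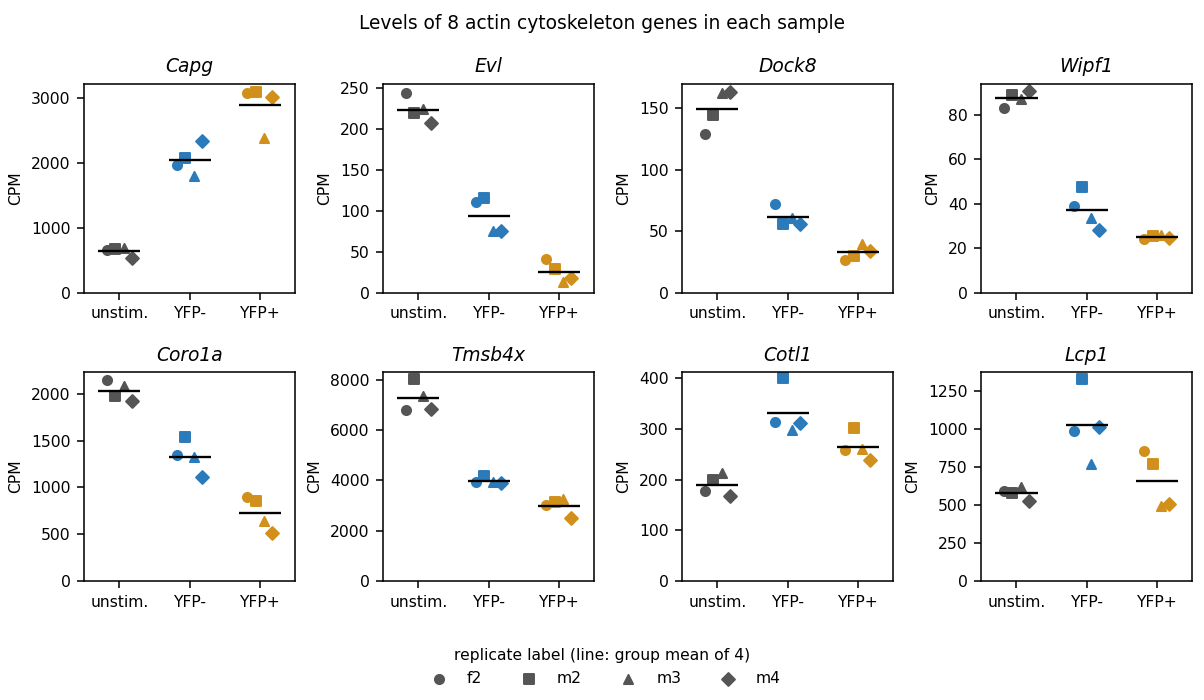
CPM (linear axes starting at 0) of 8 of the genes in each of the 12 samples, with a marker for each replicate label and a line at the group mean of 4. Capg lies in separate rising bands, Evl, Dock8, Wipf1, Coro1a and Tmsb4x in separate falling bands, and Cotl1 and Lcp1 have their highest means in YFP- samples.

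Rac1 and Rac2 fell in YFP- against unstimulated samples and Rhoa rose, while Cdc42, Rhoa and Rac2 were lower in YFP+ than in YFP- samples. Rac2, the Rac of blood cells, was at 2267, 2165, 2083 and 2321 CPM in the unstimulated samples, 1750.2, 1902, 1288 and 1264 CPM in the YFP- samples and 1357, 1225, 979 and 913 CPM in the YFP+ samples. Both stimulated groups were below the unstimulated samples, and YFP- and YFP+ overlapped. The YFP+ sample was below the YFP- sample of the same label for each label, and m3 and m4 were lowest in both stimulated groups. Rac2 fell with a log2 difference of -0.53 (SE 0.15, limma adjusted p = 0.0108) in YFP- samples, lost without m4, and with -0.47 (SE 0.15, limma adjusted p = 0.0454) in YFP+ against YFP- samples, lost when the samples of any 1 label or the YFP+ libraries m3 and m4 were left out (-0.24, limma adjusted p = 0.352, for the latter) and under centring, quantile normalization and trimmed-mean scaling. Rac1, the widely expressed Rac, was at 97.1, 100.3, 100.1 and 101 CPM in the unstimulated samples, 64.9, 65.4, 61.9 and 50.6 CPM in the YFP- samples and 45.6, 51.0, 58.6 and 58.8 CPM in the YFP+ samples. All stimulated samples were below all unstimulated ones, and YFP- and YFP+ overlapped. The difference was -0.72 (SE 0.12, limma adjusted p = 2.9e-04) for YFP- and -0.90 (SE 0.12, limma adjusted p = 2.3e-05) for YFP+ against unstimulated samples. Of the exon bases of Rac1, 51.4% overlap Daglb on the other strand, and whether counting used strand is not given in the sources used here, so its counts are uncertain.

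Cdc42 encodes the GTPase that activates WASP. It was at 485, 481, 389.8 and 307 CPM in the unstimulated samples, 612, 746, 543 and 589 CPM in the YFP- samples and 528, 533, 199 and 203 CPM in the YFP+ samples. All YFP- samples were above all unstimulated and all YFP+ samples, and the YFP+ samples m3 and m4 were far below f2 and m2. The difference between YFP+ and YFP- samples was -0.92 (SE 0.31, limma adjusted p = 0.0474), and -0.22 (limma adjusted p = 0.475) without the YFP+ libraries m3 and m4. It was also not past the threshold without m2 (limma adjusted p = 0.0600), m3 (0.161) or m4 (0.2001), nor under centring or trimmed-mean scaling. In YFP- against unstimulated samples Cdc42 differed by 0.60 (limma adjusted p = 0.121), which passed without the YFP+ libraries m3 and m4 (limma adjusted p = 0.0029). Rhoa, the GTPase of contractility and stress fibres, was at 152, 143, 135 and 127 CPM in the unstimulated samples, 190.2, 180.4, 166 and 190.3 CPM in the YFP- samples and 164, 151, 111 and 130.0 CPM in the YFP+ samples. The YFP- samples were again above all others. Rhoa rose with a log2 difference of 0.38 (SE 0.13, limma adjusted p = 0.0227) in YFP- samples and fell with a log2 difference of -0.40 (SE 0.13, limma adjusted p = 0.0386) in YFP+ against YFP- samples. Its rise was lost without m2 or m4 and under 3 of 4 scalings, and its fall when the samples of any 1 label or the YFP+ libraries m3 and m4 were left out (-0.204, limma adjusted p = 0.315, for the latter), and under centring and trimmed-mean scaling.

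Of the exchange factor genes, Dock8 fell most. Dock8 (GRCm38 chromosome 19, 24999534 to 25202432, plus strand) encodes a leukocyte exchange factor for Cdc42 that binds WIP. It was at 129, 145, 162 and 163 CPM in the unstimulated samples, 72.6, 55.8, 60.8 and 55.9 CPM in the YFP- samples and 27.0, 29.8, 40.01 and 34.4 CPM in the YFP+ samples. The 3 groups did not overlap, and the highest YFP+ sample, m3, was below the lowest YFP- sample. Dock8 fell with a log2 difference of -1.29 (SE 0.15, limma adjusted p = 1.0e-05) and then with -0.91 (SE 0.15, limma adjusted p = 6.8e-04), and without the YFP+ libraries m3 and m4 the second value was -1.102 (limma adjusted p = 0.000269). Dock2, a leukocyte exchange factor for Rac, was at 71.9, 77.2, 87.8 and 94.2 CPM in the unstimulated samples, 72.0, 72.6, 61.5 and 70.0 CPM in the YFP- samples and 49.7, 53.0, 49.3 and 45.3 CPM in the YFP+ samples. Unstimulated and YFP- samples overlapped, and all YFP+ samples were below both. Dock2 fell with a log2 difference of -0.48 (SE 0.12, limma adjusted p = 0.00981) in YFP+ against YFP- samples, a call lost without m2 or m4, without the YFP+ libraries m3 and m4 (-0.42, limma adjusted p = 0.0625), and under centring and quantile normalization. Vav1, the exchange factor phosphorylated below activating receptors, ranged over 34.9 to 45.3 CPM without stimulation, 36.6 to 112 CPM among YFP- and 18.8 to 74.9 CPM among YFP+ samples and passed in no comparison. Its YFP+ values split between f2 and m2, at the top of that range, and m3 and m4, at the bottom: without m3 and m4 its difference from unstimulated samples turned from -0.10 to 0.77 (limma adjusted p = 0.0396). In YFP- against unstimulated samples Vav1 differed by 0.70 (limma adjusted p = 0.178), which passed without those YFP+ libraries (limma adjusted p = 0.0249).

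Capg (GRCm38 chromosome 6, 72544391 to 72562983, plus strand) encodes a gelsolin-family protein that caps filament ends without severing them, and was the member with the largest rise against unstimulated samples, while Vcl had the larger rise in YFP+ against YFP- samples. It was at 658, 671, 688 and 539.9 CPM in the unstimulated samples, 1969.8, 2076, 1801 and 2333 CPM in the YFP- samples and 3069.5, 3086, 2378 and 3020.3 CPM in the YFP+ samples. The 3 groups were apart, and even the lowest YFP+ sample, m3, was above the highest YFP- sample. The log2 difference was 1.68 (SE 0.12, limma adjusted p = 2.3e-07) in YFP- against unstimulated samples, 0.50 (SE 0.12, limma adjusted p = 0.00926) in YFP+ against YFP- samples and 2.17 (SE 0.12, limma adjusted p = 7.7e-09) in YFP+ against unstimulated samples. Without the samples labelled f2 or m2 the middle value was 0.45 (limma adjusted p = 0.0741) or 0.47 (limma adjusted p = 0.0786), and without the YFP+ libraries m3 and m4 it was 0.60 (limma adjusted p = 0.00688). Gsn, the gene for gelsolin, which severs and caps, moved the other way. It was at 46.7, 38.8, 28.1 and 18.9 CPM in the unstimulated samples, 16.5, 19.2, 15.4 and 11.6 CPM in the YFP- samples and 18.3, 17.1, 3.05 and 4.12 CPM in the YFP+ samples. Every YFP+ sample was below every unstimulated one, with m3 and m4 far below f2 and m2, and YFP- overlapped both groups. The difference for YFP+ against unstimulated samples was -1.98 (SE 0.51, limma adjusted p = 0.00409), and -0.83 (limma adjusted p = 0.0237) without the YFP+ libraries m3 and m4. Between YFP+ and YFP- samples it was -0.96 (SE 0.51, limma adjusted p = 0.202), and 0.20 (limma adjusted p = 0.721) without m3 and m4. In YFP- against unstimulated samples Gsn differed by -1.02 (limma adjusted p = 0.111), which passed without those libraries (limma adjusted p = 0.0021). Capzb, which encodes a subunit of the main barbed-end capping protein, ranged over 802 to 1027, 637 to 859.8 and 442 to 743 CPM, and passed in YFP+ against unstimulated samples (-0.62, SE 0.17, limma adjusted p = 0.00495), but not without m3 and m4 (-0.34, limma adjusted p = 0.051).

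The crosslinker and adhesion genes did not share a course. Lcp1, the gene for the leukocyte filament bundler L-plastin, was at 588, 581, 617 and 523 CPM in the unstimulated samples, 985, 1329, 765 and 1010.0 CPM in the YFP- samples and 855, 768, 489 and 505 CPM in the YFP+ samples. All YFP- samples were above all unstimulated samples, and the YFP+ samples spread from below the unstimulated range (m3 and m4) into the YFP- range (f2 and m2). Lcp1 rose with a log2 difference of 0.80 (SE 0.19, limma adjusted p = 0.00371) in YFP- samples, and was lower in YFP+ than in YFP- samples, with a log2 difference of -0.66 (SE 0.19, limma adjusted p = 0.0267). The latter was -0.31 (limma adjusted p = 0.262) without the YFP+ libraries m3 and m4, and was also lost without m2 or m4 and under centring and trimmed-mean scaling. In YFP+ against unstimulated samples Lcp1 did not pass (0.14), but was higher without those libraries (0.49, limma adjusted p = 0.0209). Tln1, which encodes talin, the link from integrins to actin, was at 221, 247, 269 and 251 CPM in the unstimulated samples, 149, 162, 121 and 110.0 CPM in the YFP- samples and 114, 136, 141 and 119.8 CPM in the YFP+ samples. All stimulated samples were below all unstimulated samples, and the YFP+ values lay within the range of the YFP- values. Tln1 fell with a log2 difference of -0.88 (SE 0.14, limma adjusted p = 1.3e-04) in YFP- and -0.95 (SE 0.14, limma adjusted p = 3.5e-05) in YFP+ against unstimulated samples. Flna, the gene for the crosslinker filamin A, ranged over 131 to 165, 77.3 to 135 and 62.5 to 91.1 CPM in unstimulated, YFP- and YFP+ samples. Flna was lower in YFP- (-0.47, SE 0.17, limma adjusted p = 0.0314, lost without f2, m3 or m4) and in YFP+ (-0.86, SE 0.17, limma adjusted p = 5.5e-04) than in unstimulated samples.

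Vcl (GRCm38 chromosome 14, 20929398 to 21033676, plus strand), the gene for vinculin, which binds talin at adhesions, was the least abundant member, with 20 to 154 reads per library. It was at 0.537, 0.749, 1.22 and 1.15 CPM in the unstimulated samples, 1.502, 1.41, 1.003 and 1.52 CPM in the YFP- samples and 2.30, 2.85, 3.38 and 3.56 CPM in the YFP+ samples. All YFP+ samples were above all others, and unstimulated and YFP- samples overlapped. The rise in YFP+ samples was 1.15 (SE 0.29, limma adjusted p = 0.0118) against YFP- and 1.78 (SE 0.29, limma adjusted p = 1.2e-04) against unstimulated samples. The first of these calls was lost without m2, m3 or m4 (limma adjusted p = 0.0599 to 0.0692), and was 0.93 (limma adjusted p = 0.115) without the YFP+ libraries m3 and m4. Of the exon bases of Vcl, 25.5% overlap Ap3m1 on the other strand. Among the genes with a CArG box, Vcl thus rose, Arpc4 fell in YFP+ samples, Myl6 passed in no comparison and Actg1 passed only in YFP+ against unstimulated samples, as a fall.

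Of the myosin genes, Myh9, the heavy chain of non-muscle myosin IIA, ranged over 137 to 153, 88.7 to 135 and 75.7 to 90.7 CPM. Myh9 fell with a log2 difference of -0.35 (SE 0.14, limma adjusted p = 0.0457) in YFP- samples, lost without m2, m3 or m4, and with -0.49 (SE 0.14, limma adjusted p = 0.0195) in YFP+ against YFP- samples, lost without f2 or m2 and under centring, quantile normalization and trimmed-mean scaling. Myl6, an essential light chain of the same motor, ranged over 664 to 718, 659 to 736 and 625 to 679 CPM, with differences of -0.0018, -0.09 and -0.09, none past the threshold. Of the genes that tie filaments to the membrane, Msn, the gene for moesin, was at 182, 181, 183 and 187 CPM in the unstimulated samples, 166, 185, 145 and 138 CPM in the YFP- samples and 119.9, 143, 146 and 120.4 CPM in the YFP+ samples. YFP+ samples were below the unstimulated ones, and Msn fell with a log2 difference of -0.47 (SE 0.12, limma adjusted p = 0.00309) in that comparison. Ezr, the gene for ezrin, was at 123, 119, 129.9 and 106 CPM in the unstimulated samples, 166, 301, 115 and 209 CPM in the YFP- samples and 142, 100.1, 50.6 and 57.0 CPM in the YFP+ samples. The YFP- samples spread widely, with m2 highest, and the YFP+ samples m3 and m4 were the lowest of all 12. Ezr was lower in YFP+ than in YFP- samples, with a log2 difference of -1.22 (SE 0.32, limma adjusted p = 0.0147). This was -0.64 (limma adjusted p = 0.137) without the YFP+ libraries m3 and m4, and did not pass without m2 (-1.096, limma adjusted p = 0.0691) or m4 (-0.999, limma adjusted p = 0.132). In YFP- against unstimulated samples Ezr differed by 0.64 (limma adjusted p = 0.108), which passed without the YFP+ libraries m3 and m4 (limma adjusted p = 0.0239).

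The Ena/VASP genes, whose products elongate filaments at their growing ends, went apart. Evl (GRCm38 chromosome 12, 108554720 to 108688516, plus strand) was at 244, 219.9, 225 and 207 CPM in the unstimulated samples, 111, 116, 75.2 and 75.5 CPM in the YFP- samples and 41.3, 29.2, 13.3 and 18.6 CPM in the YFP+ samples. The 3 groups did not overlap, with all YFP+ samples below all YFP- samples. Evl fell with a log2 difference of -1.28 (SE 0.28, limma adjusted p = 0.00204) in YFP- against unstimulated samples, with -1.98 (SE 0.28, limma adjusted p = 2.9e-04) in YFP+ against YFP- samples and with -3.26 (SE 0.28, limma adjusted p = 3.7e-07) over both, the largest fall among the members in YFP+ samples. Without the YFP+ libraries m3 and m4 the middle value was -1.41 (limma adjusted p = 0.000301). Counted from the largest fall, Evl was at place 241 of 12364 genes in YFP+ against YFP- samples. Vasp was at 133, 135, 135 and 107 CPM in the unstimulated samples, 189, 198, 143 and 143 CPM in the YFP- samples and 183, 231, 129 and 181 CPM in the YFP+ samples. All YFP- samples were above the unstimulated samples, and YFP+ overlapped both. Vasp was higher in YFP+ than in unstimulated samples, with a log2 difference of 0.48 (SE 0.17, limma adjusted p = 0.0269), a call lost without f2, m2 or m4 and when rRNA-like features were removed from library totals, and the difference between YFP+ and YFP- samples was 0.09.

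Ratios of related genes within a sample do not change when each library is scaled by 1 factor, though quantile normalization can change them. In this way 9 pairs were compared, as a description with no test. The log2 ratio of Evl to Vasp CPM was 0.87, 0.71, 0.74 and 0.96 in the unstimulated samples, -0.77, -0.78, -0.92 and -0.92 in the YFP- samples and -2.15, -2.98, -3.28 and -3.28 in the YFP+ samples. The 3 groups were apart, with Evl the higher of the pair in every unstimulated sample and the lower in every stimulated one. Per kb of exon the Evl level was 1.57 times that of Vasp without stimulation, 0.495 times among YFP- and 0.117 times among YFP+ samples. The log2 ratio of Dock2 to Dock8 was -0.85, -0.91, -0.89 and -0.79 in the unstimulated samples, -0.01, 0.38, 0.02 and 0.33 in the YFP- samples and 0.88, 0.83, 0.30 and 0.40 in the YFP+ samples. It was higher in all stimulated than in all unstimulated samples, and per kb of exon Dock2 was at 0.486, 0.997 and 1.34 times the level of Dock8 in unstimulated, YFP- and YFP+ samples. The ratio of Coro1a to Coro1b was lower in all stimulated samples, with a mean of 3.44 without stimulation, 3.13 among YFP- and 3.05 among YFP+ samples.

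The remaining pairs shifted less or did not separate. The log2 ratio of Actb to Actg1 averaged 3.15 without stimulation, 2.87 among YFP- and 3.08 among YFP+ samples. YFP- samples were below both other groups for it, and Actb stayed 7.24 to 8.81 times as abundant as Actg1 per kb of exon. For Rac2 to Rac1 the means were 4.47, 4.66 and 4.37, for Tmsb4x to Tmsb10 2.39, 2.23 and 2.25, and for Was to Wasf2 -0.73, -0.48 and -0.32, in unstimulated, YFP- and YFP+ samples, with overlap in every comparison. For Msn to Ezr the means were 0.62, -0.25 and 0.72, and for Actr2 to Actr3 -0.51, -1.08 and -0.51. In both of these the YFP- samples were below the unstimulated ones, and the YFP+ samples m3 and m4 were the highest of all 12.

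**Figure D4:**
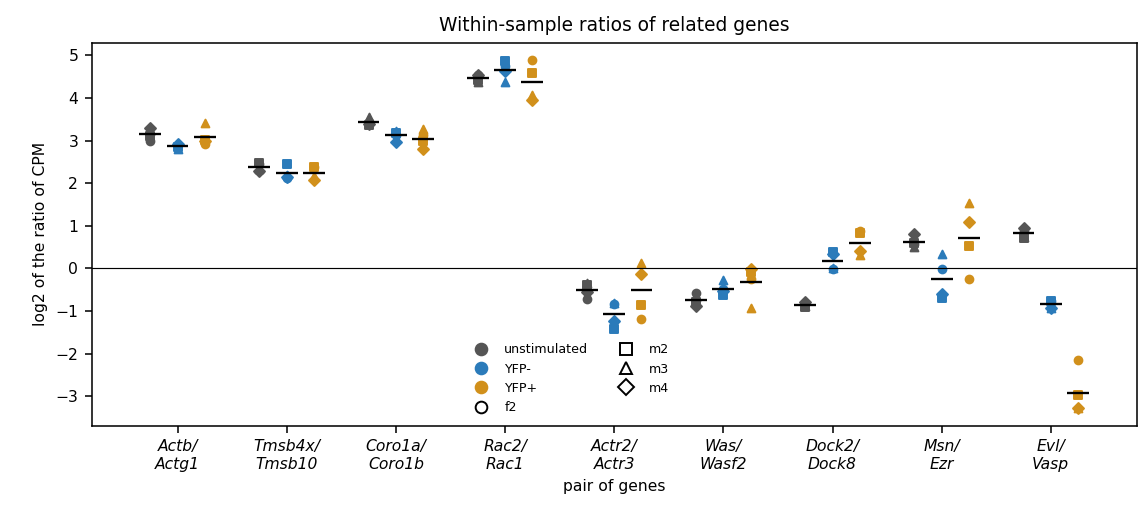
Log2 ratio of the CPM of 9 pairs of related genes in each of the 12 samples (points, with a marker for each replicate label and a line at the group mean of 4). Only Evl to Vasp has all 3 groups apart, with means of 0.82, -0.85 and -2.92.

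Beyond the 40 genes, 124 other genes of the same pathways were listed, of which 110 were tested. In YFP- against unstimulated samples 18 were higher and 40 lower, with a median log2 difference of -0.15. In YFP+ against YFP- samples 1 was higher and 36 lower, with a median of -0.35, and in YFP+ against unstimulated samples 15 were higher and 60 lower, with a median of -0.58. Scaling changed the split of the second comparison, to 6 higher and 26 lower with centring, 6 and 30 with quantile normalization and 4 and 27 with trimmed-mean scaling. The shares of all genes called are those given above. Formins, which nucleate unbranched filaments, were mostly lower: 6 of 8 fell and 1 rose in YFP- against unstimulated samples. Of 18 other exchange factors and GTPase-activating proteins, 11 fell and none rose in that comparison, and 8 fell and none rose in YFP+ against YFP- samples. Of the genes for the serum response factor and its MRTF partners, Mrtfa fell in YFP- against unstimulated samples (-1.18, SE 0.14, limma adjusted p = 1.4e-05). Mrtfb passed only in YFP+ against unstimulated samples (-0.72, SE 0.15, limma adjusted p = 0.00110), and Srf passed in none (-0.32, 0.53 and 0.21).

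On the deposited scale, the only pathway gene higher in YFP+ than in YFP- samples was Myo1e, a membrane-bound class I myosin, at 50.7 ± 0.225 against 35.5 ± 2.99 CPM (0.52, SE 0.13, limma adjusted p = 0.00973). Among called genes whose log2 CPM averaged 2 or more and whose direction held in all 4 label pairs, a rule used for the genes of this and the next paragraph, the largest falls were in Arhgap45, a GTPase-activating protein of blood cells, Lpxn, a leukocyte relative of paxillin, Stk10, a kinase of ezrin, radixin and moesin, Arhgap4, and the Rac-like GTPase Rhog. Arhgap45 was at 165 ± 14.1 CPM without stimulation, 67.1 ± 17.2 CPM among YFP- and 15.98 ± 2.17 CPM among YFP+ samples (mean ± SD, n = 4), and fell with a log2 difference of -2.05 (SE 0.17, limma adjusted p = 8.1e-06) in YFP+ against YFP- samples. Lpxn and Rhog did not pass between YFP- and unstimulated samples (-0.09 (SE 0.18, limma adjusted p = 0.715) and -0.32 (SE 0.13, limma adjusted p = 0.0542)), and fell with a log2 difference of -1.72 (SE 0.18, limma adjusted p = 3.4e-05) and -1.43 (SE 0.13, limma adjusted p = 1.2e-05) from YFP- to YFP+ samples.

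In YFP- against unstimulated samples the largest rises by this rule were in the tropomyosin gene Tpm3 (1.38), the GTPase Rhof (1.097), the capping protein subunit Capza2 (1.05), the monomer-binding twinfilin Twf1 (0.98) and Dstn, a relative of cofilin (0.96). The largest falls were in Abi3, a WAVE complex subunit (-1.77), the Rac exchange factor Prex1 (-1.50), Iqgap2 (-1.37), the Cdc42 exchange factor Dock11 (-1.36) and Arhgap45 (-1.33), with limma adjusted p of at most 0.0202 for all 10. By this rule, in YFP+ against unstimulated samples Rhof (0.99), Twf1 (0.97), Gmfb, a debranching factor (0.96), Myo1e (0.82) and Swap70 (0.74) rose most. Arhgap45 (-3.37), Arhgap4 (-2.66), the cofilin phosphatase Ssh2 (-2.65), Abi3 (-2.35) and Coro7 (-2.24) fell most, with limma adjusted p of at most 0.00175 for all 10. The rule leaves out larger rises in the listed group of other GTPases. The largest log2 difference there was 3.75 in YFP- and 4.57 in YFP+ against unstimulated samples.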

How the data were processed

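RNA of 12 samples was reverse transcribed from 10 ng of total RNA and read as paired ends of 150 bases, per the labels' protocols. The submitters' processing notes name bcl2fastq, STAR 2.7.9a, Subread, featureCounts 2.0.3 and the build GRCm38, and the annotation, strand setting and treatment of multimapped reads are not given in the sources used here. The values of the 1 table used, as the authors deposited it, are moderated log2 CPM: a prior is added to each read count before scaling to the library total. Of its 55774 lines, 287 repeats were dropped. Whole reads were recovered for 100% of values (tolerance 0.001 reads), with a largest difference from the formula of 5.15e-14. No count model was used as the main test, because the deposited unit is a log2 value. CPM in the text is 2 to the power of the deposited value. A count of 3 reads, the limit that a count of 0 allows by counting error alone, was 0.0553 to 0.0933 CPM.

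All 12 samples were fitted together in limma 3.58.1 (R 4.3.3) on the deposited log2 CPM, with 1 coefficient per group and an intensity trend, and a gene was called at 0.05 after Benjamini-Hochberg adjustment over 12364 genes. The planned comparison of protein sequences was not made. All 40 genes are named, with values in every sample for the 5 largest called rises and falls in each comparison and for genes of the 9 pairs. Pathway genes named are the 5 largest called rises and falls per comparison whose log2 CPM averages 2 or more and whose direction is the same in all 4 label pairs, besides Srf, Mrtfa and Mrtfb, named for the CArG box after their values were seen. The genes and lists were chosen with earlier results of these data known. Gene positions and overlaps come from GENCODE M21 on GRCm38, which held 99.4% of identifiers, and are not the authors' coordinates. Promoter sequences come from RefSeq. Alternatives were a replicate block, only the samples compared, other filters, pseudocount, scalings and thresholds, no trend, sample weights and leaving out samples, and, chosen after seeing the data, leaving out the YFP+ libraries m3 and m4. Other steps used Python 3.11.15, pandas 2.3.3 and matplotlib 3.10.9.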

Additional observations from a re-analysis of the deposited data

Results flagged for a closer look

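In 177 sets of 4 values (59 named genes in 3 groups), 10 held a sample whose gap to its nearest neighbour was a larger share of the group's range than Dixon's 95% limit allows. Chance flags about 1 in 20 sets, here 8.85. Of the 10, 5 concern the unstimulated library m4, which also had the largest ribosomal RNA-like share. It was low for Cfl1, with a gap of 0.929 of the range (1671 CPM against 1853 to 1868 in the others), for Arpc1b with 0.859, for Vasp with 0.950 and for the tropomyosin gene Tpm3 with 0.889, and high for Prex1 with 0.969. The YFP+ library m3 was low for Capg with a gap of 0.918 (2378 CPM against 3020 to 3086) and for Myo1e with 0.869, the latter over a range of 50.3 to 50.8 CPM. The YFP- library m2 was high for Cotl1 with 0.836, the YFP- library m3 was low for Twf1 with 0.889, and the unstimulated library f2 was low for Rac1 with 0.875. The m3 value of Capg was still above all YFP- values.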

How the results depend on the processing

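The counts of called members and pathway genes moved with the setting. Calls of single members moved as well, and many of these changes are given with each gene above. For YFP+ against YFP- samples, the 18 called members became 10 with only the 8 samples compared, 5 with no filter, 8 with centring on the sample median, 8 with trimmed-mean scaling, 8 at an adjusted p under 0.01, 3 with an absolute log2 change of at least 1 required, and 9 without the YFP+ libraries m3 and m4, a setting chosen after seeing the data. Leaving out the samples of 1 label, or the YFP+ library m3 alone, gave 6 to 13 members. In those settings 11.48% to 16.01% of all genes were lower and 1.22% to 3.37% higher. The 37 pathway genes became 22 with no filter, 24 at 0.01 and 20 with the log2 change required. For YFP- against unstimulated samples, the 20 members became 12 with no filter, 32 with sample weights and 4 with the log2 change required. With no filter 5.40% of features were higher and 3.94% lower, and with sample weights 35.8% and 24.2% of all genes were. The members became 30 with only the 8 samples compared, where 33.9% of all genes were higher and 23.7% lower. Without the YFP+ libraries m3 and m4 they became 30 as well, where the shares were 34.4% and 23.6%. The fit shares 1 estimate of the spread over the 3 groups, so these libraries bear on p-values here while the differences stay the same. Members gained without them were Arpc5, Cdc42, Vav1, Ezr and Vasp as higher and Actb, Coro1b, Was, Capzb and Gsn as lower. The 58 pathway genes became 22 with the log2 change required. For YFP+ against unstimulated samples, the log2 change left 12 of 29 members and 40 of 75 pathway genes. Fewer samples and a stricter threshold are part of how these settings are built; for the others the cause was not tested. The single change of direction with a call was that of Vav1, to 0.77 in YFP+ against unstimulated samples without the YFP+ libraries m3 and m4.

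With the replicate block, 23, 26 and 29 members and 44, 64 and 75 pathway genes were called for YFP+ against YFP-, YFP- against unstimulated and YFP+ against unstimulated samples. Of all genes, 3.61%, 32.1% and 28.7% were then higher and 21.4%, 21.9% and 34.2% lower, in the same order. Members gained were Actg1, Cotl1, Arpc1b, Actr3 and Flna as lower in the first, and Arpc5, Cdc42 and Vasp as higher and Actb, Capzb and Gsn as lower in the second. Deviations of same-label samples correlated at 0.05 to 0.37, -0.06 to 0.10 and -0.04 to 0.38, and 3, 1 and 2 of 4 samples correlated best with their own label. The labels are thus not shown to pair samples in all comparisons, and the signs of pairing were clearest in the first. Members with few reads, such as Vcl, have the least precise values, and shared or overlapping reads limit Actg1, Rac1, Coro1b, Arpc4, Arpc1b, Cfl1 and Vcl.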
